A study of Mus musculus with 12 samples.

Results

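Haem synthesis begins and ends in the mitochondrion, and 9 genes of this pathway were followed here among the 33531 gene symbols listed for each library. They are the rows with the symbols Alas1, Alas2, Alad, Uros, Urod, Cpox, Ppox, Fech and Slc25a38, and all 9 had a mean of at least 1 RPKM (reads scaled to transcript length and library size) over the 12 libraries, so each was tested. The set does not hold every enzyme of the pathway.

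RNA was sequenced from mouse acute myeloid leukaemia cells of the line CMM-tetON-shStat3, which carries a hairpin against Stat3 under the control of doxycycline (Dox). The cells are marked by GFP and mCherry (mCh) and were engrafted through the vein in NSG mice, a host strain without mature lymphocytes. Groups of 3 libraries were compared, all with the same hairpin: mice given CpG1668, a DNA oligonucleotide recognised by the receptor TLR9, together with Dox (CpG1668+Dox), CpG1668 alone, Dox alone, and PBS, the vehicle. Treatment into the vein started near 1% leukaemia cells in blood, and the labels give its schedule both as 6 daily doses and as 3 doses on alternate days. Cells positive for GFP and mCh were sorted from the spleen 1 day after the last dose. There was no Dox group without the hairpin, so effects of Dox and of the hairpin cannot be told apart, and a single line was used. Whether each library stands for its own mouse is not stated in the labels, and the p-values below then cover no more than library-to-library spread, which may be technical.

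Depth was estimated at 30450000 to 35030000 reads per library, and 11945 to 12454 genes per library had at least 1 RPKM. At that depth 3 reads of a gene of 1 kb amount to 0.0856 to 0.0985 RPKM, a limit of counting error only. The targeted transcript was not lower with Dox. Stat3 had 19.7, 19.4 and 19.0 RPKM in libraries labelled CpG1668+Dox, 17.6, 18.5 and 18.4 in those labelled CpG1668, 18.8, 19.1 and 18.8 in those labelled Dox, and 17.9, 16.8 and 16.9 in PBS libraries. Each direction below is therefore one between libraries as labelled. Of the 9 stem and progenitor markers, 5 had a mean of at least 1 RPKM, with Kit at 18.1 ± 0.899, 16.5 ± 0.569, 18.4 ± 1.92 and 17.6 ± 1.1 RPKM in CpG1668+Dox, CpG1668, Dox and PBS libraries (SD, n = 3 each). Against PBS, 1 of the 5 was called higher and 2 lower in CpG1668+Dox, and the same in CpG1668 (limma, adjusted p under 0.05). In Dox 1 was called higher and 0 lower. Of all genes tested, 9.13%, 3.06% and 3.95% were called higher in CpG1668+Dox, CpG1668 and Dox, and 6.4%, 2.83% and 2.04% lower. Red cell genes were abundant in cells labelled AML, and their summed level in PBS libraries was 15300 to 20200 RPKM over 21 genes. Most of that sum came from alpha and beta globin genes. Genes of mast cells and basophils summed to 1220 to 1680 RPKM over the 12 libraries.

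Haem is an iron-bearing ring that haemoglobin, cytochromes and catalase need. Glycine enters the mitochondrion with help from the carrier Slc25a38 and is joined to succinyl-CoA by 5-aminolevulinate synthase, the rate-limiting enzyme. That enzyme has a form used by all cells, Alas1, which haem itself represses, and a form of the red cell lineage, Alas2, whose gene lies on the X chromosome and is a known target of the erythroid factor GATA1. Alad, Uros and Urod work in the cytosol, and Cpox, Ppox and Fech complete the ring in the mitochondrion, where Fech inserts the iron.

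Bases before the transcription start are printed for 3 members, because Alas2 and Cpox hold the GATA letters that erythroid factors can bind and Urod does not. Cpox and Urod are both enzymes that all cells use. The letters searched on both strands were AGATAA or AGATAG and, with another first base, TGATAA or TGATAG. They are shown in capitals. Sequences are from RefSeq (GRCm38.p6), run 5′ to 3′ along the gene's strand and leave out bases that GENCODE M21 places in an exon.
Alas2 (chrX:150547167-150547374, plus strand): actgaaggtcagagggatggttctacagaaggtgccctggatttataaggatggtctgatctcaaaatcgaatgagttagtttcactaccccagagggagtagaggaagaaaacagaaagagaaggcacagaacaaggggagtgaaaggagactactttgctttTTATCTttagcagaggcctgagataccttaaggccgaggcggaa
Cpox (chr16:58669958-58670207, plus strand): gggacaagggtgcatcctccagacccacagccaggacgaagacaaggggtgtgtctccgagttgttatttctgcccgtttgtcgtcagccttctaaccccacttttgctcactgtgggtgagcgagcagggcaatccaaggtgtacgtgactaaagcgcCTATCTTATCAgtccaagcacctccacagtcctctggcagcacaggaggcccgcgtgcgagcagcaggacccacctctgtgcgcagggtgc
Urod (chr4:116994414-116994663, minus strand): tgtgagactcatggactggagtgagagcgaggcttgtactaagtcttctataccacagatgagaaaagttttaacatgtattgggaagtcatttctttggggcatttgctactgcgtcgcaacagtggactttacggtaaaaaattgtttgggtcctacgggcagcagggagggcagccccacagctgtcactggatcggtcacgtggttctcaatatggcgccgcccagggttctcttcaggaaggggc
The Alas2 window held 1 match, which began 86 bases before the RefSeq start and read TTATCT on the gene's strand. The Cpox window held 2 matches that began 91 and 86 bases before the start and shared 1 base. Fech was left out of this search. The other 8 of the 9 members had 11 RefSeq start sites. Among these, 3 sites held a match in the 250 bases before the start: those of Alas2 and Cpox, and the second of the Uros sites, with matches 205 and 68 bases before it. Of 32851 promoters of the same length, 26.5% held at least 1 match and 6.4% held 2 or more, so a match is common and only describes the letters in this window.

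The erythroid form of the first enzyme was the member that differed most between groups. Alas2 (ENSMUSG00000025270.13, chromosome X, 150547375 to 150570638, plus strand, GRCm38) had 23.0, 9.96 and 14.3 RPKM in libraries labelled CpG1668+Dox, 23.1, 37.9 and 43.5 in those labelled CpG1668, 29.9, 7.87 and 14.0 in those labelled Dox, and 66.0, 98.0 and 72.1 in PBS libraries. All 9 treated libraries lay below the 3 PBS libraries, while the 3 treated groups overlapped except for CpG1668+Dox, which lay wholly below CpG1668. The means were 15.7 ± 6.62, 34.8 ± 10.6, 17.2 ± 11.4 and 78.7 ± 17.0 RPKM in CpG1668+Dox, CpG1668, Dox and PBS libraries (SD, n = 3 each). Alas2 fell in CpG1668+Dox (log2 change of RPKM + 1 of -2.30, SE 0.414, limma, Benjamini-Hochberg adjusted p = 0.003) and in Dox (-2.29, SE 0.414, adjusted p = 0.0087), both against PBS. The second call is lost without the filter on low values (adjusted p = 0.052). Against PBS the CpG1668 libraries had a log2 change of -1.18 (95% interval -2.09 to -0.27) with an adjusted p of 0.13, which did not pass. It passed in a limma fit of these compared groups alone (adjusted p = 0.035) and in no other alternative tried. Among the 12167 genes tested, Alas2 had the 3rd lowest log2 change in CpG1668+Dox and in Dox, and the 9th lowest in CpG1668, each against PBS. These comparisons share the PBS libraries.

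The ubiquitous form of the same enzyme was low and moved the other way. Alas1 (ENSMUSG00000032786.16, chromosome 9, 106233455 to 106248654, minus strand) had 3.84, 2.92 and 4.54 RPKM in libraries labelled CpG1668+Dox, 2.65, 2.67 and 2.44 in those labelled CpG1668, 2.37, 2.49 and 2.53 in those labelled Dox, and 2.07, 2.21 and 1.91 in PBS libraries. Every treated library lay above the PBS libraries, and the CpG1668+Dox libraries lay above all others. Alas1 rose in CpG1668+Dox, at 3.77 ± 0.813 RPKM against 2.06 ± 0.148 in PBS (SD, n = 3 each), a ratio of means of 1.83 and a log2 change of 0.62 (SE 0.0993, limma, adjusted p = 0.0013). The log2 changes of 0.23 in CpG1668 (adjusted p = 0.22) and 0.18 in Dox (adjusted p = 0.35) against PBS did not pass. Against Dox alone, Alas1 was higher in CpG1668+Dox (log2 change 0.45, limma, adjusted p = 0.03), and the values in single libraries spread most in CpG1668+Dox. That call is lost in a fit of the compared groups alone (adjusted p = 0.16), without the filter (0.079), and when any 1 of the 6 libraries other than CpG1668+Dox library 2 is left out.

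**Figure D1:**
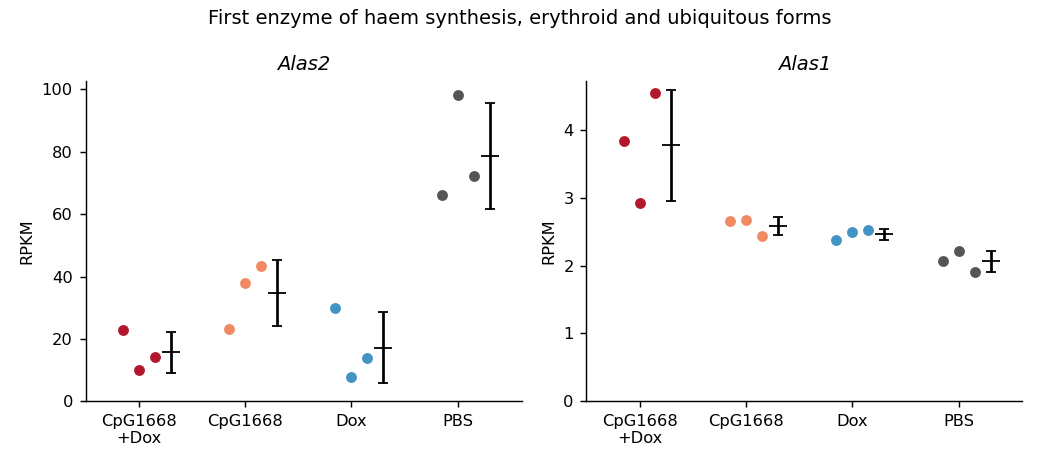
RPKM of Alas2 and Alas1 (vertical axes, starting at 0) in each library of the 4 groups, with a bar for the mean and whiskers for the SD of 3 libraries. All treated libraries lie below the PBS libraries for Alas2, whose lowest PBS value is 66.0, and above them for Alas1, whose highest PBS value is 2.21.

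By group mean, Alas2 was the most abundant of the 9 members in RPKM in PBS and took rank 2 in CpG1668, behind Urod. In Dox and in CpG1668+Dox its mean stood in the 5th place, behind Urod, Alad, Ppox and Cpox. The ratio of the RPKM of Alas2 to that of Alas1 was 5.97, 3.41 and 3.15 in CpG1668+Dox libraries, 8.69, 14.2 and 17.9 in CpG1668 libraries, 12.6, 3.16 and 5.52 in Dox libraries, and 31.8, 44.4 and 37.7 in PBS libraries. The ratio was thus above 31 in each PBS library and below 18 in each treated one. The 6 libraries with a Dox label had a ratio 4.5-fold lower than the 6 without, within CpG1668 strata (log2 difference -2.17, two-sided exact permutation test, p = 0.005, the smallest that 400 arrangements give, adjusted p = 0.04 over 8 tests). For the 6 libraries with CpG1668 against the 6 without, within Dox strata, the ratio was 2.09-fold lower (log2 difference -1.06, exact permutation p = 0.035, adjusted p = 0.13), which did not pass the adjustment. The ratio and its tests were chosen with earlier results of these data known. Between any pair of groups of 3 the smallest possible exact p is 0.1. Each treated group reached it against PBS, and CpG1668+Dox, 3.25-fold lower, reached it against CpG1668 (exact permutation, adjusted p = 0.13 for each). CpG1668+Dox against Dox (exact permutation p = 0.6) and CpG1668 against Dox (p = 0.2) did not.

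The enzyme that puts iron into the ring fell in every treated group. Fech (ENSMUSG00000024588.9, chromosome 18, 64452914 to 64490251, minus strand) had 9.39, 9.14 and 8.5 RPKM in libraries labelled CpG1668+Dox, 11.2, 12.5 and 11.7 in those labelled CpG1668, 11.3, 8.61 and 9.14 in those labelled Dox, and 14.7, 17.2 and 15.8 in PBS libraries. No treated library reached the lowest PBS library, and Dox library 1 lay among the CpG1668 libraries. Against the PBS mean of 15.9 ± 1.27 RPKM, Fech was 43.4% lower in CpG1668+Dox (9.01 ± 0.461 RPKM, log2 change -0.76, limma, adjusted p = 0.0001). It was 26.0% lower in CpG1668 (11.8 ± 0.649 RPKM, log2 change -0.40, adjusted p = 0.02) and 39.2% lower in Dox (9.68 ± 1.41 RPKM, log2 change -0.67, adjusted p = 0.0023), again against PBS (SD, n = 3 each). The CpG1668 call is lost without the filter (adjusted p = 0.066) and when CpG1668 library 1 or 3 or PBS library 2 or 3 is left out (highest adjusted p 0.082). Fech was also lower in CpG1668+Dox than in CpG1668 (log2 change -0.35, adjusted p = 0.049), a call lost when any 1 of their 6 libraries is left out and in 5 of the 8 other settings tried.

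The other late mitochondrial enzymes differed less. Cpox, which makes protoporphyrinogen (ENSMUSG00000022742.6, chromosome 16, 58670292 to 58717636, plus strand), had 20.5, 19.6 and 21.7 RPKM in CpG1668+Dox libraries, 22.7, 22.1 and 22.8 in CpG1668 libraries, 25.7, 23.6 and 22.8 in Dox libraries, and 25.5, 30.8 and 24.3 in PBS libraries. Ppox, which oxidises that product (ENSMUSG00000062729.11, chromosome 1, 171275990 to 171281186, minus strand), had 21.5, 21.4 and 22.8 RPKM in CpG1668+Dox libraries, 23.2, 23.8 and 23.2 in CpG1668 libraries, 23.3, 21.4 and 23.3 in Dox libraries, and 26.7, 27.7 and 24.6 in PBS libraries. Treated libraries of Ppox all lay below PBS, and for Cpox only the Dox group reached into the PBS range. Both fell in CpG1668+Dox against PBS, Cpox by 0.36 and Ppox by 0.26 on the log2 scale (limma, adjusted p = 0.0073 and 0.0038). Ppox also fell in Dox (log2 change -0.21, adjusted p = 0.028), but not when the 2 groups were fitted alone (adjusted p = 0.11), without the filter (0.072), or when Dox library 2 or 3 or PBS library 1 or 2 was left out.

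Among the cytosolic steps, Urod had the highest mean of all members in each of the 3 treated groups. In CpG1668 libraries 2 and 3, however, Alas2 (37.9 and 43.5 RPKM) lay above Urod. Urod, which strips carboxyl groups from the ring (ENSMUSG00000028684.14, chromosome 4, 116989965 to 116994413, minus strand), had 33.6, 33.6 and 30.3 RPKM in CpG1668+Dox libraries, 33.9, 36.8 and 36.3 in CpG1668 libraries, 38.0, 31.9 and 34.2 in Dox libraries, and 42.2, 41.9 and 39.7 in PBS libraries. All 9 treated libraries lay below PBS. It fell in CpG1668+Dox (log2 change -0.34, limma, adjusted p = 0.0038) and in Dox (-0.25, adjusted p = 0.042) against PBS. Of the 6 fits that leave out 1 library, only the one without Dox library 1 kept the Dox call, and with no filter its adjusted p was 0.12. Alad, which forms porphobilinogen (ENSMUSG00000028393.10, chromosome 4, 62509169 to 62519918, minus strand), had 27.0, 26.8 and 23.9 RPKM in CpG1668+Dox libraries, 27.5, 30.0 and 29.2 in CpG1668 libraries, 32.6, 26.4 and 24.6 in Dox libraries, and 34.1, 38.3 and 29.4 in PBS libraries. Only CpG1668+Dox lay wholly below PBS, and there the log2 change was -0.37 (adjusted p = 0.035). Leaving out any of the 6 libraries but PBS library 3 ended that call, as did dropping the filter (adjusted p = 0.095).

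Uros, which closes the ring (ENSMUSG00000030979.13, chromosome 7, 133686243 to 133710072, minus strand), and the glycine carrier Slc25a38 (ENSMUSG00000032519.11, chromosome 9, 120110374 to 120124504, plus strand) passed in no comparison. Uros averaged 3.74 ± 0.239, 4.17 ± 0.289, 4.4 ± 0.529 and 4.72 ± 0.657 RPKM in CpG1668+Dox, CpG1668, Dox and PBS libraries, with a log2 change of -0.27 in CpG1668+Dox against PBS (95% interval -0.46 to -0.07, limma, adjusted p = 0.065). Slc25a38 averaged 11.3 ± 0.534, 11.8 ± 0.648, 11.9 ± 0.256 and 12.6 ± 0.726 RPKM in the same groups (SD, n = 3 each), with a log2 change of -0.14 (-0.25 to -0.03, adjusted p = 0.092). Among the alternatives, Uros passed in this comparison with quantile normalization (limma, adjusted p = 0.029). Without PBS library 3, both Uros (0.033) and Slc25a38 (0.044) passed there. Slc25a38 was the member with the narrowest range, its highest library being 1.23 times its lowest, whereas for Alas2 this ratio was 12.5.

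**Figure D2:**
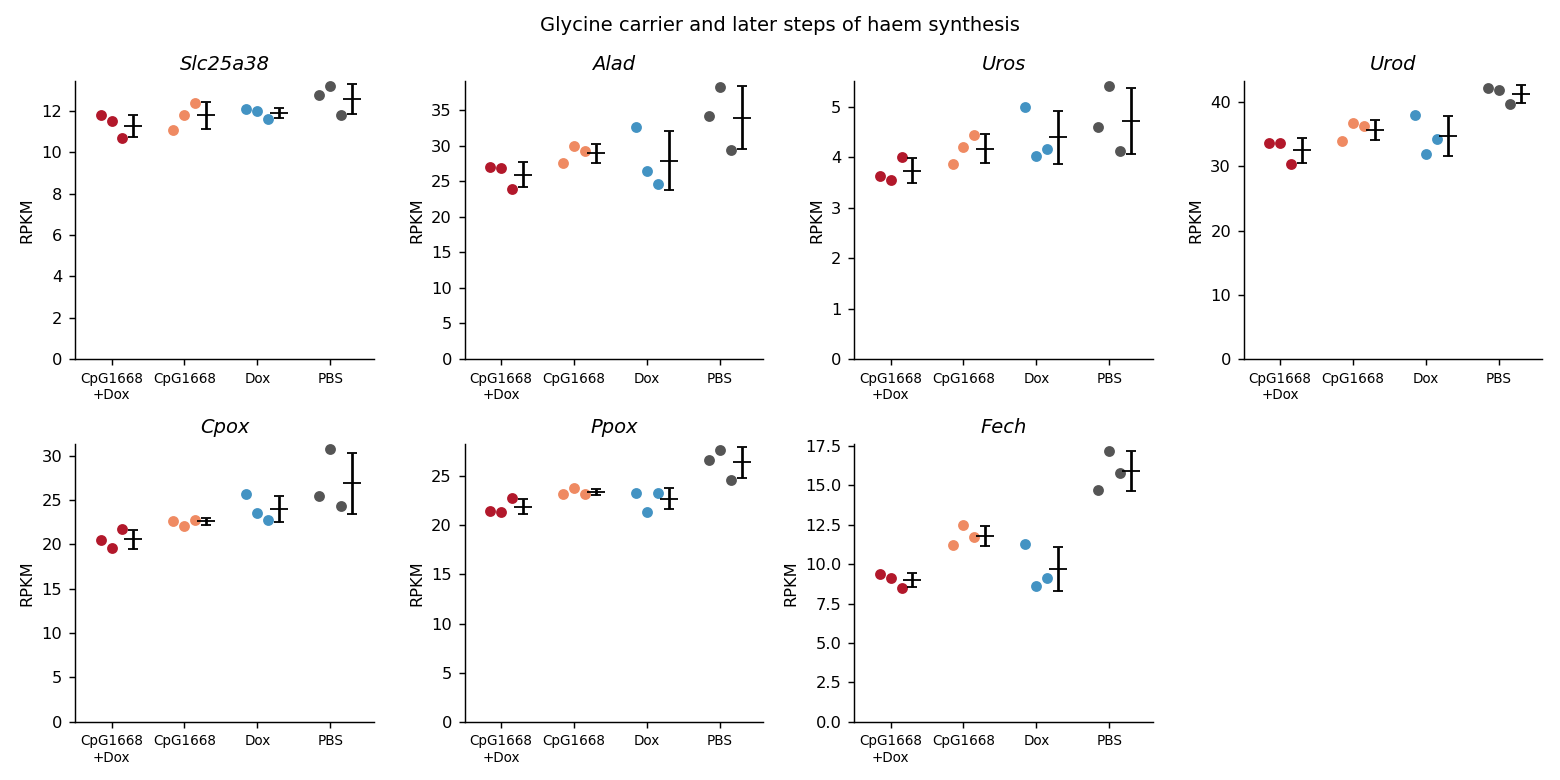
RPKM of the glycine carrier and the 6 later enzymes in each library (vertical axes, starting at 0), with a bar for the mean and whiskers for the SD of 3 libraries per group. PBS has the highest mean in every panel, and Fech shows the widest gap, from at most 12.5 in treated libraries to at least 14.7 in PBS.

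Read across the pathway, CpG1668+Dox against PBS gave 1 member higher (Alas1), 6 lower (Alas2, Alad, Urod, Cpox, Ppox and Fech) and 2 that did not pass, where 15.5% of all 12167 genes were called in either direction, 9.13% higher and 6.4% lower. In the same comparison 7 members had groups that did not overlap and were lower and 1 was higher, against 16.6% lower and 18.8% higher among all genes. For CpG1668 against PBS only Fech was called among the 9, with 5.88% of all genes called (3.06% higher and 2.83% lower), and 5 members lay wholly below and 1 above PBS (14.3% and 11.3% of all genes). For Dox against PBS 4 members were called lower (Alas2, Urod, Ppox and Fech) and 5 did not pass, with 5.98% of all genes called, 3.95% higher and 2.04% lower. There 4 members lay wholly below and 1 above PBS (9.81% and 15.2% of all genes). The median log2 change of the 9 members was -0.34 in CpG1668+Dox, -0.20 in CpG1668 and -0.21 in Dox against PBS, and those of all genes lay between -0.014 and 0.014. With quantile normalization the share of called genes that were higher moved to 42.1% in place of 58.8% for CpG1668+Dox against PBS and to 51.5% in place of 65.9% for Dox against PBS. None of the 9 members changed its direction in these comparisons with that scaling.

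**Figure D3:**
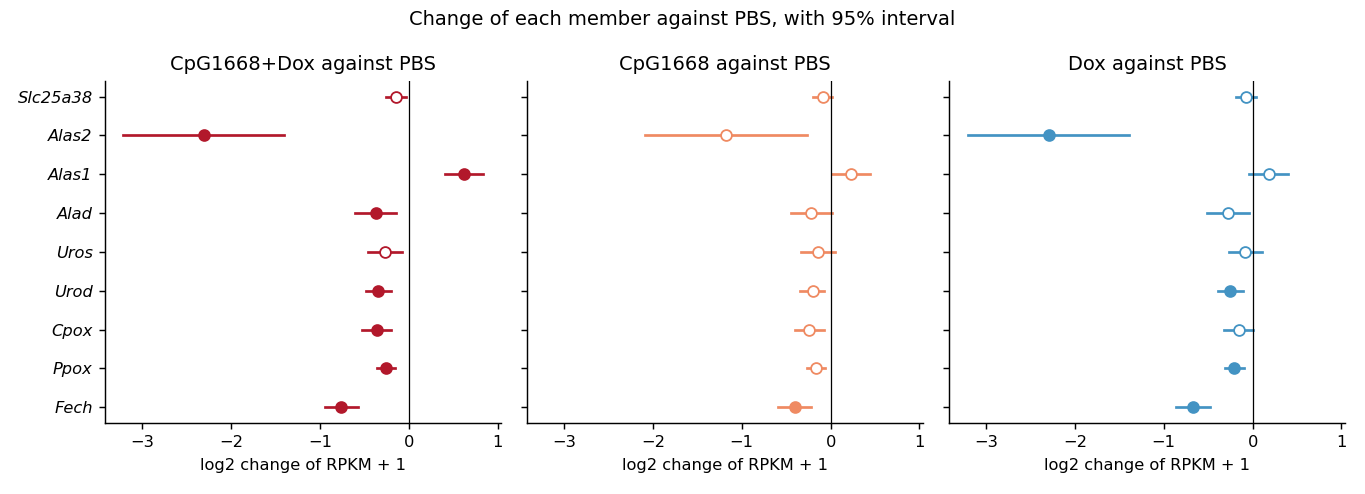
Log2 change of RPKM + 1 of each member (horizontal axes) in CpG1668+Dox, CpG1668 and Dox against PBS, with the 95% interval from limma and a filled point where the adjusted p is under 0.05. Alas2 lies furthest left in each panel, at -2.30, -1.18 and -2.29, and Alas1 is the member right of 0.

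Erythroid Alas2 was set against the mean of the 7 enzymes that all cells use (Alas1, Alad, Uros, Urod, Cpox, Ppox and Fech). The shared enzymes had mean log2 changes of -0.25 in CpG1668+Dox, -0.16 in CpG1668 and -0.21 in Dox against PBS. Alas2 lay below them by a log2 difference of -2.06, -1.02 and -2.09 in these 3 comparisons. Between treated groups, the difference was -1.04 for CpG1668+Dox over CpG1668, 0.03 for CpG1668+Dox over Dox, and 1.07 for CpG1668 over Dox. No test was made on this difference, which is a score over several members. Without Alas1 the mean of the remaining 6 shared enzymes was -0.39, -0.23 and -0.27 in CpG1668+Dox, CpG1668 and Dox against PBS, and Fech was the lowest of them in each.

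Between treated groups few members passed. In CpG1668+Dox against CpG1668, Fech alone was called (3.26% of all genes, 3.07% higher and 0.197% lower), while 6 members lay wholly below and 1 above, against 5.26% and 15.2% of all genes. In CpG1668+Dox against Dox, Alas1 alone was called (3.48% of all genes, 2.81% higher and 0.666% lower). There 2 members lay wholly below and 1 above Dox (10.3% and 8.84% of all genes), and the log2 change of Alas2 was -0.01 with a 95% interval of -0.92 to 0.90, which leaves a wide range of differences possible. In CpG1668 against Dox 0 of 9 members were called by limma, with 1.56% of all genes called (0.353% higher and 1.21% lower), and all 9 overlapped between the groups, where 5.15% of all genes lay wholly above and 14.4% wholly below. Before adjustment 2 members were under 0.05 there, Alas2 (log2 change 1.11, limma, adjusted p = 0.22) and Fech (0.27, adjusted p = 0.15). Leaving out Dox library 1 raised Fech to a call there (lowest adjusted p 0.03).

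The interaction asks whether the change with Dox differed with and without CpG1668. It was called by limma for 0 of the 9 members and for 0 of the 12167 genes (0.0%), although 812 genes were under 0.05 before adjustment. Fech was the 1 member among these, with an interaction of 0.32 on the log2 scale (limma, adjusted p = 0.68). Without the filter on low values 12 genes were called, none of them a member. For Alas2 the interaction was 1.17 with a 95% interval of -0.11 to 2.46 (adjusted p = 0.8). The log2 change of Alas2 was -1.12 for CpG1668+Dox over CpG1668 and -2.29 for Dox over PBS, values whose difference did not pass the test.

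The genes most like Alas2 were picked by their values over the same 12 libraries, so what follows describes them without a test. Of 6614 genes with a mean of at least 5 RPKM that are neither members nor predicted gene models, the 5 closest to Alas2 over the 12 libraries were Hbb-bt and Hbb-bs (adult beta globins), Slc4a1 (the band 3 anion exchanger of the red cell membrane), Rsad2 (known as an interferon-induced antiviral enzyme) and Ypel4. Their root mean square differences from Alas2 on centred log2 values were 0.0593, 0.0932, 0.128, 0.15 and 0.231, where the median candidate had 1.07. Hbb-bt had 686, 296 and 437 RPKM in CpG1668+Dox libraries, 664, 1090 and 1290 in CpG1668 libraries, 893, 262 and 479 in Dox libraries, and 1950, 2750 and 2160 in PBS libraries. For each 100 RPKM of Hbb-bt there were 2.92 to 3.56 RPKM of Alas2 over all 12 libraries, a 1.22-fold range, beside a 12.5-fold range of Alas2 itself. Hbb-bt is the closest of all candidates, which fixes a narrow range. Reads of Hbb-bt and Hbb-bs, and of Hba-a1 and Hba-a2 below, may be split between near-identical copies, which makes their single levels uncertain.

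Rsad2 averaged 5.62 ± 1.59, 14.9 ± 4.52, 6.65 ± 5.26 and 30.3 ± 7.85 RPKM, and Slc4a1 10.3 ± 4.08, 24.9 ± 6.04, 12.9 ± 9.24 and 62.9 ± 21.5 RPKM, in CpG1668+Dox, CpG1668, Dox and PBS libraries (SD, n = 3 each). Both were picked for their likeness to Alas2, so their group means are a description of that choice. The erythroid regulator Gata1, which was not picked in this way, averaged 89.8 ± 3.86, 92.3 ± 2.82, 99.3 ± 4.89 and 104 ± 3.23 RPKM in the same groups, and the RPKM of Alas2 for each 100 of Gata1 ran from 8.22 to 93.2. Fech lay between, with 91.3 to 568 RPKM of Alas2 for each 100 of Fech.

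**Figure D4:**
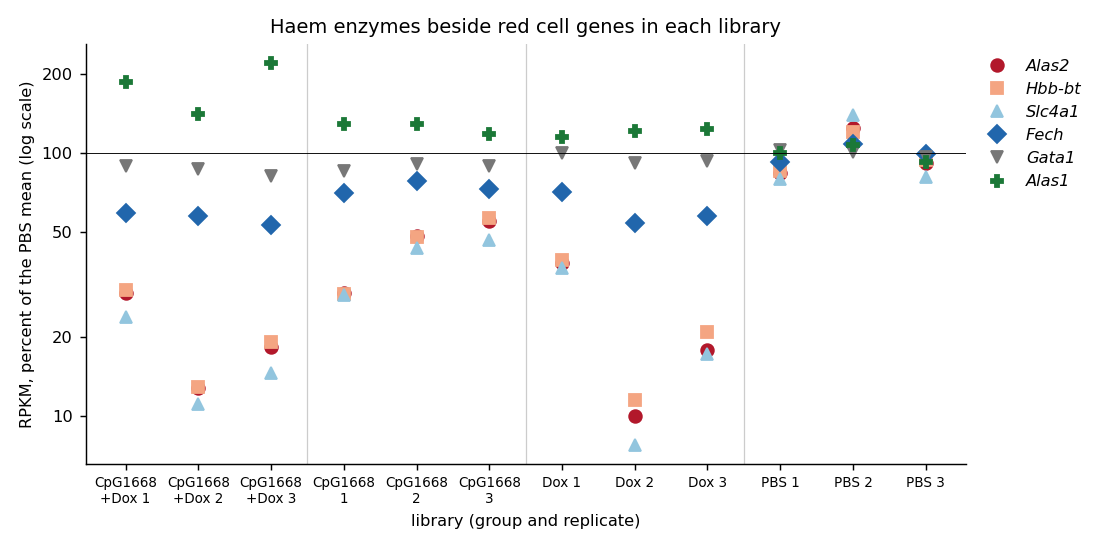
RPKM of 3 members (Alas2, Fech and Alas1) and of Hbb-bt, Slc4a1 and Gata1 in each library, as percent of the gene's PBS mean on a log axis. Alas2 and Hbb-bt lie together in every library, down to 11.5% for Hbb-bt in Dox library 2, while Gata1 stays between 82.0% and 103%.

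Within groups, the library with the most Alas2 was library 1 of CpG1668+Dox, library 3 of CpG1668, library 1 of Dox and library 2 of PBS. Counting Alas2 itself, 5, 4, 7 and 8 of the 9 members were highest in these libraries. The library with the least Alas2 was lowest for 5, 6, 5 and 2 of the 9 members in the same groups, so in PBS only Fech shared the low end with Alas2. No test was made on these counts. The coefficient of variation of Alas2 within groups was 21.6% to 65.9%, and that of the other 8 members 1.47% to 21.6%.

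Red cell genes were lower too. Of 22 listed genes 21 were measured, as no row had the symbol Ahsp. These 21 summed to 6570, 3930 and 4910 RPKM in CpG1668+Dox libraries and 6790, 9730 and 11100 in CpG1668 libraries. In Dox libraries the sums were 8220, 3960 and 5310, and in PBS libraries 15300, 20200 and 16800. Globins made up most of the mean sum of 17400 RPKM in PBS. Their PBS means were 2510 (Hba-a1), 5290 (Hba-a2), 2290 (Hbb-bt) and 5820 RPKM (Hbb-bs). Hbb-bt, Hbb-bs and Slc4a1 are also among the genes picked above for likeness to Alas2. Against PBS, 20 of 21 were called lower in CpG1668+Dox, 9 in CpG1668 and 12 in Dox (6.4%, 2.83% and 2.04% of all genes). None of the 21 was called higher, and their median log2 changes were -0.83, -0.50 and -0.68. The genes with the largest moderated t in these comparisons were Trim10 (log2 changes -1.45 in CpG1668+Dox, -0.85 in CpG1668 and -1.16 in Dox), the carbonic anhydrase Car2 (-0.49 in CpG1668+Dox, -0.36 in CpG1668), the membrane skeleton genes Ank1 (-0.63) and Tmod1 (-0.36) in CpG1668+Dox, Tmod1 (-0.27) and Hemgn (-0.24) in CpG1668, and the alpha globins Hba-a1 (-1.75) and Hba-a2 (-1.69) and Epb42 (-1.14) in Dox, all called. Genes of neutrophils and monocytes ran the other way. Late neutrophil genes (14) summed to 1750 to 4590 RPKM in CpG1668+Dox, 656 to 853 in CpG1668, 588 to 2340 in Dox and 109 to 222 in PBS libraries. In CpG1668+Dox, CpG1668 and Dox, 14, 10 and 14 of them were called higher against PBS (9.13%, 3.06% and 3.95% of all genes). Monocyte genes (11) summed to 291 to 436, 133 to 152, 101 to 173 and 22.2 to 40.9 RPKM in the same order of groups. Against PBS, 10 of 10 tested were called higher in each treated group, beside the same shares of all genes. No gene of the 3 lists was at 0 in all libraries. Their part in the results for the haem enzymes was not tested, and in such bulk libraries fewer cells of a type and less RNA per cell cannot be told apart.

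Of 13 genes that transport porphyrins and cofactors or control the pathway, 8 were called lower in CpG1668+Dox, 2 in CpG1668 and 3 in Dox against PBS, and 0 higher. Of all genes 6.4%, 2.83% and 2.04% were called lower in these comparisons. The list was chosen with results known, and its median log2 changes were -0.26, -0.15 and -0.10. Eif2ak1, the haem-regulated kinase that restrains translation, fell in all 3, at 17.0 ± 1.07, 18.5 ± 0.64 and 17.6 ± 1.2 RPKM in CpG1668+Dox, CpG1668 and Dox against 23.0 ± 1.54 in PBS (log2 changes -0.41, -0.30 and -0.37). Abcb10, a transporter of the inner mitochondrial membrane, fell in CpG1668+Dox (46.0 ± 0.586 against 56.2 ± 0.597 RPKM in PBS) and in CpG1668 (48.0 ± 2.61 RPKM). Slc25a37, the mitochondrial iron importer mitoferrin 1, fell in CpG1668+Dox (14.1 ± 0.694 RPKM) and in Dox (15.0 ± 1.8 RPKM) against 22.4 ± 5.45 RPKM in PBS, and so did the carrier Slc25a39 (log2 changes -0.46 and -0.43). The porphyrin exporter Abcg2 had a log2 change of -0.25 in Dox that did not pass (adjusted p = 0.19).

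Of 9 tested genes of haem use and breakdown, 3 were called lower in CpG1668+Dox and 1 in each of CpG1668 and Dox against PBS, and 0 higher. Among all genes 6.4%, 2.83% and 2.04% were called lower in these 3 comparisons. The haem transporter Slc48a1 fell in all 3, at 31.9 ± 1.26, 33.7 ± 1.29 and 31.7 ± 0.744 RPKM against 39.5 ± 1.33 in PBS. Blvrb, a biliverdin reductase (log2 change -0.39), and Cox15, which makes haem A (-0.15), fell in CpG1668+Dox. Hmox1, the inducible haem oxygenase, had 11.7, 11.0 and 13.4 RPKM in CpG1668+Dox libraries against 9.66, 11.8 and 9.38 in PBS libraries, which overlap, and it did not pass (log2 change 0.21, adjusted p = 0.23). Iron genes held 1 called higher, Aco1 (4.68 ± 0.0758 against 3.75 ± 0.192 RPKM, log2 change 0.26, adjusted p = 0.0026), which doubles as an iron sensor, and 1 lower, the iron-sulfur cluster gene Glrx5 (-0.19, adjusted p = 0.044), of 15 in CpG1668+Dox against PBS, and 0 in the other comparisons with PBS. That count is near the background, as 15.5% of all genes were called in CpG1668+Dox against PBS. The transferrin receptor Tfrc had a log2 change of -0.35 in CpG1668+Dox (adjusted p = 0.052) and of -0.31 in Dox (adjusted p = 0.14), and neither passed.

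For the substrates, 1 of 8 genes of glycine and succinyl-CoA supply was called, the glycine transporter Slc6a9. It was lower in CpG1668+Dox (11.7 ± 0.114 RPKM, adjusted p = 0.0063) and CpG1668 (11.5 ± 0.799, adjusted p = 0.01) than in PBS (14.2 ± 0.854), and had 13.3 ± 0.41 RPKM in Dox, which did not pass (adjusted p = 0.41). A count of 1 of 8 is near the background in CpG1668+Dox, where 15.5% of all genes were called, and 5.88% were called in CpG1668. The erythroid regulators held 6, 4 and 1 of 12 genes called lower in CpG1668+Dox, CpG1668 and Dox against PBS, with median log2 changes of -0.18, -0.17 and -0.02. The shares of all genes called lower in these comparisons were 6.4%, 2.83% and 2.04%. In CpG1668+Dox the adaptor Lmo2 (65.5 ± 1.49 against 88.6 ± 2.98 RPKM in PBS), the repressor Gfi1b (56.5 ± 1.65 against 70.9 ± 3.39), the erythropoietin receptor Epor (17.9 ± 0.78 against 21.9 ± 1.37) and Gata1 (log2 change -0.21, adjusted p = 0.0084) fell. In CpG1668 Tal1 (log2 change -0.16), Gata2 (-0.19), Gfi1b (-0.19) and Gata1 (-0.18) fell, and in Dox Lmo2 (-0.35) alone.

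Several members share bases with a gene on the other strand, and the strand setting of the counting is not given in the sources used here. Alas2 shares 311 exonic bases (12.9% of its own) with Apex2, which had mean levels of 1.23 to 1.34 RPKM in the 4 groups, and Ppox shares 791 (17.5%) with B4galt3, at 6.15 to 7.0 RPKM. Cpox shares 204 bases with Gpr15 and Alas1 465 with 4930500F10Rik, both under 0.2 RPKM in every library, and the span of Uros meets that of Bccip without shared exonic bases. Reads of such pairs cannot be told apart without strand, so the levels of these members are uncertain to that extent.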

How the data were processed

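RNA-seq of 12 libraries (4 groups of 3, taken from the sample titles) was used as RPKM values per gene that the authors deposited. Per the submitters' processing notes, mm10 was the build and STAR 2.7.9 and Partek 7.18.0723 were among the tools, with no step named for either. The annotation and the way reads were counted are not stated there. RPKM divides by gene length and library size, so a few abundant genes, such as globins, can shift the rest.

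Of 33531 genes, the 12167 that averaged 1 RPKM or more were fitted as log2 of the deposited RPKM + 1 with limma 3.58.1 in R 4.3.3, as 4 group means with an intensity trend and 8 residual degrees of freedom. The pseudocount of 1 shrinks changes of low genes such as Alas1. There were 7 contrasts, each adjusted by Benjamini-Hochberg over all genes, called under 0.05. The Alas2 to Alas1 ratio was compared by exact permutation. The code was tested on simulated data.

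Depth was inferred from the step that 1 read makes in genes with 1 annotated transcript. Only 72.2% to 73.5% of 4851 to 5187 such genes lay within 0.05 of whole reads, so counts were not recovered.

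Members, lists, tests and alternatives were chosen with earlier results of these data known. All members were named, with up to 4 genes per list and comparison with PBS by the absolute moderated t, and the 5 genes most like Alas2. Other genes, such as Stat3, Kit and those on the opposite strand, are checks. Of the genes the rule takes, those not given in the text did not pass. Positions come from GENCODE M21 (GRCm38). Alternatives were a pseudocount of 0.1, no filter or a mean of 5 RPKM, median-of-ratios scaling, quantile normalization, no trend, the compared groups alone, replicate number as a block, and each library left out once.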

Additional observations from a re-analysis of the deposited data

How the results depend on the processing

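Of 913 recomputed member changes, 837 kept direction and call, 47 lost and 9 gained a call, and 20 changed direction, none of them called in either setting. The number of members called against PBS in CpG1668+Dox stayed at 6 to 9 under all alternatives (7 as reported). For CpG1668 against PBS (1) it was 0 without the filter, 3 in a fit of the compared groups alone, and 0 to 1 leaving out a library. For Dox against PBS (4) it was 1 without the filter, 2 for the compared groups alone and 2 to 5 leaving out a library. For CpG1668+Dox against CpG1668 (1) it was 0 with a pseudocount of 0.1, no filter, a filter of 5 RPKM or no trend, and 0 to 1 leaving out a library. Against Dox (1) it was 0 with no filter, a filter of 5 (which drops Alas1) or the compared groups alone, and 0 to 1 leaving out a library. CpG1668 against Dox ranged from 0 to 1. The replicate block gave 2 calls for Dox against PBS, without Urod (adjusted p = 0.065) and Ppox (0.062), and 0 for CpG1668+Dox against CpG1668 (Fech 0.089) and against Dox (Alas1 0.066). Numbers do not pair the libraries (18 pairs of deviations, r of -0.207 to 0.268, 2 over 0.1, and 3 libraries closest to their own number), and the block changed no other member call.

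Leaving out a library, log2 changes that turned ran from -0.16 to 0.006 for Uros in Dox against PBS. In CpG1668+Dox against Dox they were -0.436 to 0.464 (Alas2), -0.178 to 0.017 (Alad) and -0.158 to 0.019 (Fech), and Alas2 minus the shared enzymes -0.36 to 0.44. In CpG1668 against Dox they were -0.05 to 0.023 (Slc25a38), -0.108 to 0.02 (Uros), -0.015 to 0.109 (Urod) and -0.023 to 0.172 (Alad). Interactions were -0.014 to 0.068 (Slc25a38), -0.072 to 0.092 (Cpox) and -0.131 to 0.035 (Uros). Slc25a38 in CpG1668 against Dox became 0.012 with median-of-ratios scaling and 0.008 with quantile normalization. The ratio difference for CpG1668 within Dox strata ran from -1.30 to -0.80, and its exact permutation p was no longer under 0.05 without CpG1668+Dox library 2 (0.05) or 3 (0.065) or Dox library 1 (0.055). The cause of these changes was not tested.

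Over all genes, a filter of 5 RPKM, which tests fewer genes, gave 1155 calls (1890 reported) for CpG1668+Dox, 455 (716) for CpG1668 and 382 (728) for Dox against PBS, 185 (397) for CpG1668+Dox against CpG1668 and 180 (423) against Dox. No filter gave 434 for Dox against PBS, 658 for CpG1668+Dox against Dox, 102 (190) for CpG1668 against Dox and 12 (0) interactions. The compared groups alone gave 355, 257, 216 and 72 calls for Dox against PBS, CpG1668+Dox against CpG1668, against Dox, and CpG1668 against Dox, and the block gave 78 for the last. Leaving out a library gave 1363 to 1544 calls for CpG1668+Dox, 367 to 479 for CpG1668 and 313 to 747 for Dox against PBS, 133 to 459 for CpG1668+Dox against CpG1668, 258 to 429 against Dox, 33 to 172 for CpG1668 against Dox and 0 to 1 interactions. Called genes that were higher in CpG1668+Dox than in CpG1668 made up 94.0% and, with quantile normalization, 82.3%; in CpG1668 against Dox 22.6%, and 36.4% with median-of-ratios scaling or 35.3% with quantile normalization.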

Other observations

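Other cell types were read from marker lists chosen with results known, and no test was made on the lists. Mast cell and basophil genes summed to 1520 to 1560 RPKM in CpG1668+Dox, 1240 to 1330 in CpG1668, 1340 to 1680 in Dox and 1220 to 1390 in PBS libraries. Megakaryocyte and platelet genes summed to 153 to 167, 162 to 196, 178 to 182 and 171 to 194 RPKM in the same groups. Markers of red pulp macrophages, which recycle haem from old red cells, summed to 31.7 to 50.1 RPKM in CpG1668+Dox, 26.7 to 38.7 in CpG1668, 26.4 to 32.1 in Dox and 17.2 to 29.9 in PBS libraries. Primary granule genes of promyelocytes summed to 145 to 322, 109 to 128, 31.4 to 64.0 and 5.44 to 6.46 RPKM.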
